A study of Mus musculus with 9 samples.

Results

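The 32 genes described here cover cholesterol synthesis, its control by the SREBP transcription factors, and the transport, storage and sensing of sterols. They were chosen by gene name from the array's gene annotation, and all 32 were measured, among 16733 genes or unnamed features tested. Messenger RNA came from 3T3-L1 cells, an established mouse preadipocyte line that can be differentiated into fat cells and was used here undifferentiated. All cultures were grown in medium with 10% fetal bovine serum and then kept without serum for 48 h. They were then left untreated (control) or given 1 of the compounds X-1 and X-3 for a further 24 h, each at 70 µM, and each of these 3 groups was measured on 3 arrays. The labels describe the control cultures as untreated and name no vehicle. The series title calls X-1 and X-3 derivatives of mangiferin, a plant xanthone glucoside, and gives the aim as expression signatures for them.

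Cells make cholesterol from acetyl-CoA through mevalonate, farnesyl pyrophosphate, squalene and lanosterol. When sterols in the endoplasmic reticulum are low, the escort protein Scap carries SREBP to the Golgi, where it is cut, and its released part switches on the genes of synthesis and uptake. When sterols are high, Insig proteins hold Scap and SREBP back, and oxysterols activate the liver X receptors (LXR), which raise genes of cholesterol export. Serum starvation removes lipoproteins, the outside source of cholesterol, and cells then depend more on their own synthesis.

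Each array held 43379 gene spots. Saturation affected 0 of them, and the share well above background was 57.9% to 67.1%. Preadipocyte and fibroblast markers were above background on all 9 arrays for 9 of 9 genes, against 1 of 8 mature adipocyte markers (Fabp4), with Cfd, Lep and Slc2a4 above background on none. Among macrophage, endothelial, epithelial and muscle markers, Adgre1, Pecam1, Cdh5, Kdr, Epcam and Myog were above background on none of the arrays, whereas Csf1r and Cd68 (macrophage), Krt8 (epithelial) and Myod1 (muscle) were above it on all 9. Ptprc (macrophage) was above it on 1 X-3 array only, and Krt18 (epithelial) on 1 control, 0 X-1 and 3 X-3 arrays. The summed level of the 4 macrophage markers, on the log2 scale defined below, was −1.87 to −1.73 in control, −0.85 to −0.79 with X-1 and −0.69 to −0.58 with X-3, and that of the 3 epithelial markers −3.55 to −3.34, −1.90 to −1.57 and −1.28 to −1.04. That of the 8 mature adipocyte markers was −1.23 to −0.76, −3.04 to −2.75 and −2.61 to −2.42. This sum followed Fabp4, with means of −1.14, −3.97 and −3.62. Adipoq, Plin1, Cfd, Retn, Lep and Cidec, mostly not above background, had higher means with both compounds than in control, and Slc2a4 lower ones. Preadipocyte and fibroblast markers also split: Pdgfra, Pdgfrb, Thy1, Col1a1 and Col1a2 had lower means with both compounds, Ly6a, Cd34 and Dlk1 higher ones. Vim was higher with X-1 and lower with X-3. The part of these marker changes in the results was not tested. X-3 replicate 1 stood apart from the other X-3 arrays on the second principal component (72.3 against −20.7 and −17.9), which held 10.9% of the variance. Results that rest on it are given with and without it. Replicates 1, 2 and 3 lay on slides 1, 2 and 3, and on each slide the control, X-1 and X-3 arrays held the same 3 positions in that order, so the effect of position cannot be told apart from that of treatment.

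Levels below are log2 intensities minus the array's 75th percentile of log2 intensity, so that 0 is the brightness of that percentile and 1 unit is a doubling. Differences are on the same log2 scale, with the standard error (SE) of the fit and n = 3 arrays per group. A gene is said to have risen or fallen when its Benjamini-Hochberg adjusted p, over all genes tested, was under 0.05. The signal of each of the 32 genes was above background on all 9 arrays. A gene with several probes is given by its brightest one. In RNA of whole cultures, fewer cells expressing a gene and less RNA per cell cannot be told apart. Both compounds were compared with the same 3 control arrays, so the 2 comparisons with control are not independent and are set side by side.

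With X-1, 12 of the 32 genes rose and 7 fell. Over all genes tested, 28.2% rose and 28.3% fell. With X-3, 13 rose and 10 fell, against 29.3% and 26.4% of all genes. In all, 59.4% of the cholesterol genes were called with X-1, against 56.5% of all genes, and 71.9% with X-3, against 55.6%. The median difference of the 32 genes was 0.08 with X-1 (0.16, 0.06 and 0.15 on slides 1, 2 and 3) and 0.05 with X-3 (0.24, 0.18 and −0.12), against 0.06 for all genes in both comparisons. The cholesterol genes thus did not move one way as a body: genes that rose and genes that fell stood side by side in the control of SREBP, the mevalonate pathway, the sterol ring enzymes and the LXR group. Between farnesyl pyrophosphate and lanosterol the only fall was that of Lss at its brightest probe, and in transport and storage none fell. The same 12 genes rose with both compounds (Insig1, Insig2, Pmvk, Ggps1, Fdft1, Sqle, Hsd17b7, Sc5d, Npc2, Soat1, Nr1h2 and Apoe), and 6 fell with both (Srebf2, Mvk, Lss, Tm7sf2, Dhcr7 and Nr1h3), with Lss and Sc5d called in the opposite direction at other probes. Acat2 fell with X-1 and was not called with X-3. Pltp rose, and Scap, Hmgcs1, Ebp and Mylip fell, with X-3 and were not called with X-1. Called in neither comparison were 8 genes (Mvd, Idi1, Fdps, Cyp51, Sc4mol, Nsdhl, Stard4 and Npc1). The split depends on how arrays are scaled to each other: scaled by spike-in RNA, on replicates 2 and 3 only, 4 rose and 19 fell with X-1, where 9.02% and 60.3% of all genes did, and 2 rose and 16 fell with X-3, where 11% and 50.2% of all genes did. Scaled by the median of all gene probes, 8 rose and 7 fell with X-1, against 18.7% and 30.6% of all genes. With that scaling 9 rose and 11 fell with X-3, against 18.4% and 29.1% of all genes. Under quantile normalization 12 rose and 10 fell with X-1, against 25.4% and 30.8%, and 13 and 10 with X-3, against 26.4% and 28.3%. With X-3 replicate 1 left out, 14 rose and 11 fell with X-3, against 32.5% and 30.4%.

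**Figure D1:**
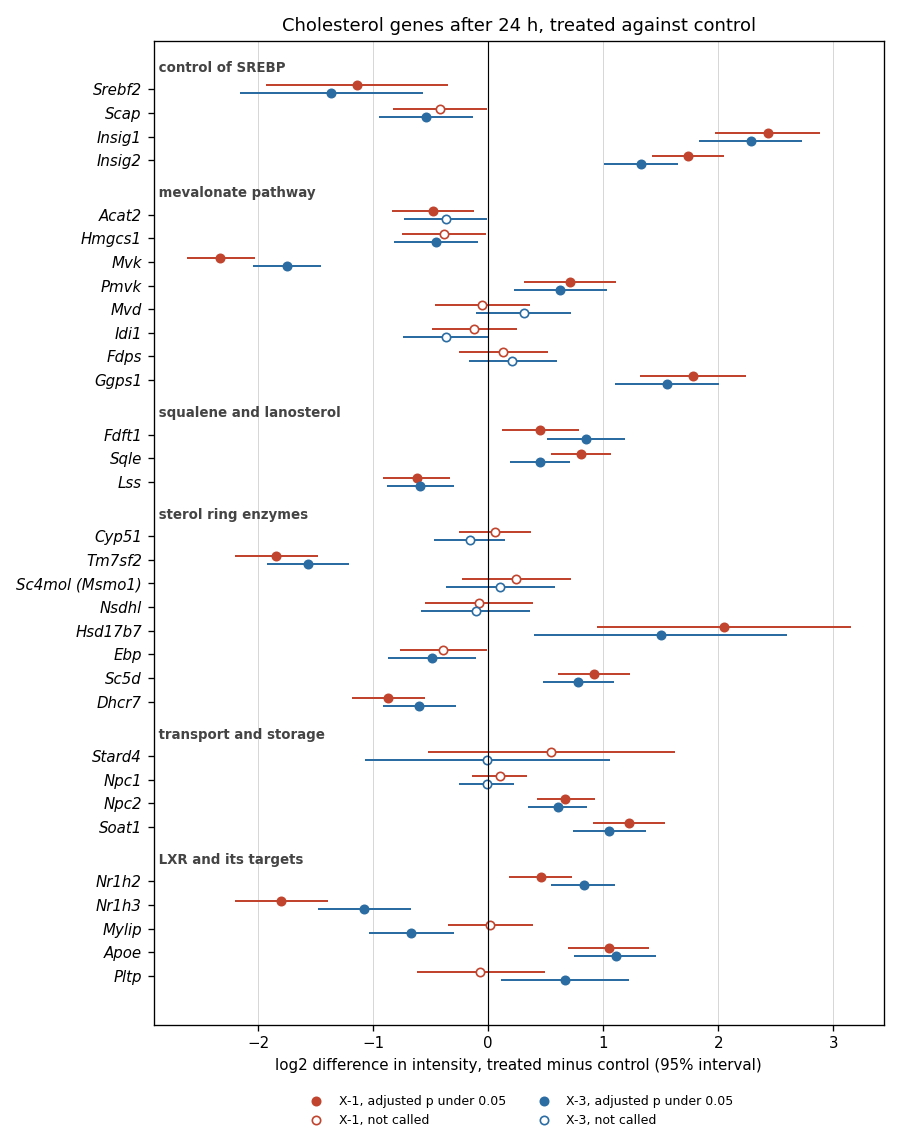
Log2 difference from control of each of the 32 genes, grouped by role, with X-1 in red and X-3 in blue; points are fitted differences, lines 95% confidence intervals (3 arrays per group), and filled points have an adjusted p under 0.05. Insig1 (2.43 and 2.28) lies farthest to the right and Mvk (−2.33 and −1.75) farthest to the left with both compounds.

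The promoters of genes that moved in opposite directions are shown because SREBP is known to bind a sterol response element beside the CCAAT box of the factor NF-Y. The windows are the 250 bases before the annotated start in RefSeq, build GRCm38.p6: chr5:28071162-28071411 (plus strand) for Insig1 and chr1:169969206-169969455 (minus strand) for Hsd17b7, which rose, chr9:42264301-42264550 (minus strand) for Sc5d, which rose at its brightest probe and fell at another, chr5:114444019-114444268 (plus strand) for Mvk and chr19:6067851-6068100 (minus strand) for Tm7sf2, which fell, and chr13:119690101-119690350 (plus strand) for Hmgcs1, which fell with X-3. Capitals mark matches, on either strand, to TCACNCCAC (a core of the sterol response element), CACGTG (an E-box), ACGTG (a core of the hypoxia response element, contained in every CACGTG) and CCAAT (read as ATTGG on the other strand).
Insig1: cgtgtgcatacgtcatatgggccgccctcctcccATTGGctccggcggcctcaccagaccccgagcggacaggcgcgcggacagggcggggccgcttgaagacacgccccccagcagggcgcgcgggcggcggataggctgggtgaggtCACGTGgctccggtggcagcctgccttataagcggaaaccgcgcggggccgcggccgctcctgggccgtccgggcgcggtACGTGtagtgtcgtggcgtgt
Hsd17b7: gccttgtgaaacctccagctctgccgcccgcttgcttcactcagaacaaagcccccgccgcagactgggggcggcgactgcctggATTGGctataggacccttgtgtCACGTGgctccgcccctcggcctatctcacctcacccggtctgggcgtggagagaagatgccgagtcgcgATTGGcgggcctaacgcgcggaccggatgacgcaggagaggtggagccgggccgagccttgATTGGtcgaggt
Sc5d: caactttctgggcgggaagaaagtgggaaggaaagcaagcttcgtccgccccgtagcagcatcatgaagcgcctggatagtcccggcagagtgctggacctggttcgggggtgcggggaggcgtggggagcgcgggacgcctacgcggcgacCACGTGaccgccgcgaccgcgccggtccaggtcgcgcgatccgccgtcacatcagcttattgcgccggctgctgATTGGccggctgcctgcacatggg
Mvk: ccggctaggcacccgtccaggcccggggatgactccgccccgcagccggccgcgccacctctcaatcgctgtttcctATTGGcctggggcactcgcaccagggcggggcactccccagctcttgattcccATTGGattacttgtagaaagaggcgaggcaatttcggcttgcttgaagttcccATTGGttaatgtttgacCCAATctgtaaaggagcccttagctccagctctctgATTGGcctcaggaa
Tm7sf2: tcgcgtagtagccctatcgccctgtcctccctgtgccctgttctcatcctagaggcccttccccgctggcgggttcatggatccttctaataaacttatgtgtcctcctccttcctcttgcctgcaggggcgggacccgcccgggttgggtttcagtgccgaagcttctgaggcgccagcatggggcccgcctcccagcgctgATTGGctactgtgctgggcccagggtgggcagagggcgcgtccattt
Hmgcs1: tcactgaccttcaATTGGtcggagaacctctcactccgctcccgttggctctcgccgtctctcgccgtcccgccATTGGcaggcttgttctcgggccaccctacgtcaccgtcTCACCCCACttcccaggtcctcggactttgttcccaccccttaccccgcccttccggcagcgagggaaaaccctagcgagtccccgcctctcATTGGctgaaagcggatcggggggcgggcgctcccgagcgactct

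The promoter table held 27 of the 32 genes, with 36 windows. Fdps, Fdft1, Sqle, Stard4 and Npc1 were not matched. CCAAT was found in 61.1% of the windows of the cholesterol genes and in 33.8% of all 32851 windows, and 22 of the 27 genes had it. The Mvk window held 5 matches, at 173, 120, 67, 50 and 14 bases before the start, and the Tm7sf2 window 1. TCACNCCAC was found in 1 of the 27 genes, Hmgcs1, 137 bases before the start, and in 1.05% of all windows. CACGTG was found in 5 genes (Scap, Insig1, Hsd17b7, Sc5d and Dhcr7), in 13.9% of their windows against 6.02% of all. In Insig1 it lay 101, in Hsd17b7 143 and in Sc5d 98 bases before the start. ACGTG was found in those same 5 genes, in 13.9% of windows against 16.6% of all, and Insig1 had a further match 21 bases before the start. By their brightest probes, of the 5 genes with CACGTG 3 rose (Sc5d among them) and 1 fell with X-1, and 3 rose and 2 fell with X-3. Of the 22 with CCAAT, 8 rose and 5 fell with X-1, and 9 rose and 8 fell with X-3. Over all genes tested, 28.2% rose and 28.3% fell with X-1, and 29.3% rose and 26.4% fell with X-3. All the letters but those of the sterol response element were found both in genes that rose and in genes that fell. Those of the sterol response element were found, among the 27 genes, only in Hmgcs1, which was not called with X-1 and fell with X-3. Rises and falls were both common among all genes.

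The largest rise of the 32 genes was that of a gene that controls SREBP. Insig1, which holds the complex of Scap and SREBP in the endoplasmic reticulum, was probed at chr5:28404246-28404305 (mm9, plus strand). Its level was −2.01, −2.45 and −2.37 on the control arrays, 0.58, 0.02 and −0.15 with X-1, and 0.00, −0.03 and 0.06 with X-3. All 6 treated arrays lay more than 1 unit above all 3 controls. Insig1 rose by 2.43 ± 0.20 with X-1 (5.37-fold, adjusted p = 1.04e-05) and by 2.28 ± 0.20 with X-3 (4.87-fold, adjusted p = 1.86e-05). Its other probe, 3100 bases upstream, gave 2.53 ± 0.16 and 2.27 ± 0.16. Insig2, the second Insig gene, was probed at chr1:123201085-123201144 (mm9, minus strand), where its level was 2.51, 2.62 and 2.64 in control, 4.10, 4.47 and 4.41 with X-1, and 4.09, 3.76 and 3.92 with X-3. Again no treated array overlapped the controls. Insig2 rose by 1.74 ± 0.14 with X-1 (3.33-fold, adjusted p = 9.52e-06) and by 1.33 ± 0.14 with X-3 (2.52-fold, adjusted p = 5.55e-05). A second Insig2 probe, 1048 bases upstream, gave 1.54 ± 0.41 with X-1, called over all probes, and 0.84 ± 0.41 with X-3, not called.

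The other SREBP control genes went the other way. Srebf2, which encodes the SREBP that mainly drives cholesterol synthesis, was probed at chr15:82035695-82035754 (mm9, plus strand), with levels of 4.36, 3.70 and 3.94 in control, 2.73, 2.57 and 3.26 with X-1, and 1.83, 3.19 and 2.88 with X-3. The treated arrays lay below all controls, but spread widely, with X-3 replicate 1 lowest. Srebf2 fell by 1.14 ± 0.35 with X-1 (adjusted p = 0.0205) and by 1.37 ± 0.35 with X-3 (adjusted p = 0.00909). Without X-3 replicate 1 the difference with X-3 was −0.97 (adjusted p = 0.0105 in that fit). The X-1 call was lost when any of these was left out: control replicate 1 (−0.96), X-1 replicate 1 (−1.08) and X-1 replicate 2 (−1.0), at adjusted p of 0.0702, 0.0618 and 0.0715. The other Srebf2 probes moved less: one 930 bases upstream gave −0.56 ± 0.37 and 0.02 ± 0.37 with X-1 and X-3, and one 31708 bases upstream −0.37 ± 0.14 and −0.20 ± 0.14. Averaged over its kept probes, Srebf2 gave −0.69 and −0.51, both still called. Scap, the escort, was at −0.42 ± 0.18 with X-1 (adjusted p = 0.0731) and fell by 0.54 ± 0.18 with X-3 (adjusted p = 0.0313). That call was lost without control replicate 2 (−0.45) or 3 (−0.53), or X-3 replicate 2 (−0.52) or 3 (−0.45).

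**Figure D2:**
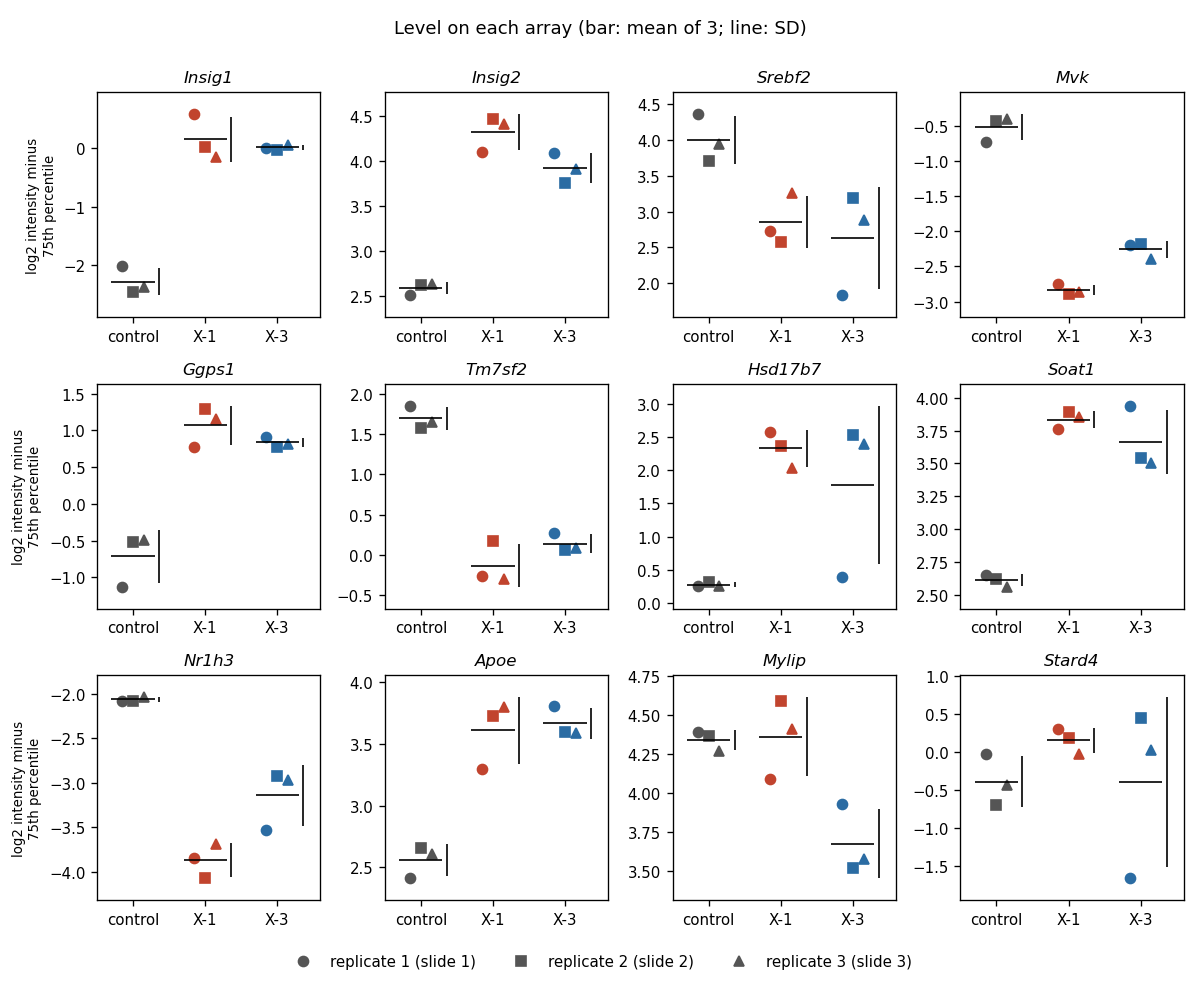
Level of 12 of the genes on each of the 9 arrays (log2 intensity minus the array's 75th percentile), with circles, squares and triangles for replicates 1, 2 and 3, a bar for the mean of 3 arrays and a vertical line for the SD; each panel has its own axis. Insig1, Insig2, Ggps1, Soat1 and Apoe lie above the controls on all 6 treated arrays, Mvk, Tm7sf2 and Nr1h3 below, and X-3 replicate 1 lies apart for Hsd17b7 and Stard4.

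Along the mevalonate pathway, 2 of 8 genes rose and 2 fell with each compound (25% each way). Of all genes, 28.2% rose and 28.3% fell with X-1, and 29.3% and 26.4% with X-3. Mvk, mevalonate kinase, had the largest fall of the 32 genes. At chr5:114902394-114902453 (mm9, plus strand) its level was −0.73, −0.42 and −0.39 in control, −2.75, −2.89 and −2.87 with X-1, and −2.20, −2.18 and −2.39 with X-3. The 3 groups did not overlap, with X-1 lowest and X-3 between X-1 and control. Mvk fell by 2.33 ± 0.13 with X-1 (5.01-fold lower, adjusted p = 1.39e-06) and by 1.75 ± 0.13 with X-3 (3.35-fold lower, adjusted p = 8.24e-06). Mvk rests on 1 probe, since its other probe was left out as an outlier. The next kinase, Pmvk, rose, by 0.71 ± 0.18 with X-1 and 0.62 ± 0.18 with X-3 (adjusted p = 0.00774 and 0.0152), and its neighbouring probe gave 0.74 and 0.62. Pmvk was no longer called with median scaling (0.50 and 0.41), had the opposite sign with spike-in scaling (−0.13 and −0.21), and without X-3 replicate 2 its X-3 call was lost (0.54). Ggps1, which makes the geranylgeranyl pyrophosphate that anchors small GTPases to membranes and so leads away from sterols, had levels of −1.13, −0.52 and −0.49 in control, 0.77, 1.29 and 1.15 with X-1, and 0.91, 0.78 and 0.82 with X-3, at chr13:14146052-14146111 (mm9, minus strand). The 6 treated arrays were all higher than the 3 controls. Ggps1 rose by 1.78 ± 0.20 (3.44-fold, adjusted p = 7.28e-05) and 1.55 ± 0.20 (2.93-fold, adjusted p = 0.000198). A probe 4016 bases upstream gave 1.72 and 1.60, and one 2711 bases downstream 0.61 and 0.23.

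The earliest steps of the pathway moved little at their brightest probes. Acat2, the thiolase that joins the first acetyl units, fell by 0.48 ± 0.16 with X-1 (adjusted p = 0.0293) and was at −0.37 ± 0.16 with X-3 (adjusted p = 0.0776). The X-1 call of Acat2 was lost without control replicate 2 (−0.46) or 3 (−0.44), or X-1 replicate 1 (−0.44), 2 (−0.52) or 3 (−0.47), and without X-3 replicate 2 it was called with X-3 (−0.54). Hmgcs1, the HMG-CoA synthase of the cytosol and the gene with the sterol element letters above, was at −0.38 ± 0.16 with X-1 (adjusted p = 0.0709) and fell by 0.45 ± 0.16 with X-3 (adjusted p = 0.0397). The Hmgcs1 call was lost when any array but X-3 replicate 1 was left out, with values of −0.27 (without X-3 replicate 3) to −0.50 (without control replicate 3). With X-1, Hmgcs1 was called when X-3 replicate 1 or 3 was left out of the shared fit (−0.38 each time). A Hmgcs1 probe 2860 bases upstream gave 0.27 ± 0.34 with X-1 and −0.18 ± 0.34 with X-3, neither called. One placed 200540 bases upstream gave −0.19 ± 0.34 and −0.95 ± 0.34, the second called over all probes. The array design places these probes on 13_random of mm9, and their placement was not checked. Mvd, the decarboxylase, Idi1, the isomerase, and Fdps, the farnesyl pyrophosphate synthase, were called with neither compound. Their differences lay between −0.12 and 0.13 with X-1, and were 0.31, −0.37 and 0.21 with X-3, with SEs of 0.16 to 0.18. Mvd was called with X-3 without X-3 replicate 3 (0.49), and Idi1 without X-3 replicate 1 (−0.51). The second Idi1 probe, 1991 bases upstream, gave 0.82 ± 0.39 and 0.93 ± 0.39, not called, and the mean over both Idi1 probes was 0.35 and 0.28, not called and opposite in sign to the brightest probe. The array design places both Idi1 probes on chromosome 2 of mm9, whereas the promoter table holds Idi1 on chromosome 13 of GRCm38.p6, so a near-identical copy cannot be told apart from Idi1 here.

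All 3 genes that lead from farnesyl pyrophosphate to lanosterol were called with both compounds, where 56.5% and 55.6% of all genes were. Fdft1, squalene synthase, rose by 0.45 ± 0.15 with X-1 (adjusted p = 0.0268) and 0.85 ± 0.15 with X-3 (adjusted p = 0.00116). The X-1 call of Fdft1 was lost without control replicate 1 (0.40) or 2 (0.46) or X-1 replicate 1 (0.40) or 3 (0.47), and also with median scaling (0.25) and averaged over its probes (0.42), and with spike-in scaling its sign turned (−0.58). Averaged over its probes, the X-3 difference of Fdft1 was 0.68 and not called. Sqle, squalene epoxidase, which is regarded as a control point after mevalonate, rose by 0.81 ± 0.11 with X-1 (1.75-fold, adjusted p = 0.000292) and 0.45 ± 0.11 with X-3 (1.37-fold, adjusted p = 0.00878). Its levels were 2.87 to 3.06 in control, 3.73 to 3.89 with X-1 and 3.33 to 3.49 with X-3, so the 3 groups did not overlap. With median scaling the X-3 difference of Sqle was 0.24 and not called, and with spike-in scaling Sqle was at −0.15 and −0.35. Lss, lanosterol synthase, fell by 0.62 ± 0.13 with X-1 (adjusted p = 0.00267) and by 0.59 ± 0.13 with X-3 (adjusted p = 0.0037) at its brightest probe. Its other probes went the other way, as described below.

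Among the 8 enzymes that turn lanosterol into cholesterol, 2 rose and 2 fell with X-1, and 2 rose and 3 fell with X-3. Of all genes, 28.2% rose and 28.3% fell with X-1, and 29.3% and 26.4% with X-3. Tm7sf2, a sterol reductase of the nuclear and endoplasmic reticulum membrane, fell most. At chr19:6062882-6062941 (mm9, minus strand) its level was 1.86, 1.58 and 1.66 in control, −0.27, 0.17 and −0.31 with X-1, and 0.27, 0.06 and 0.08 with X-3. Every treated array lay more than 1 unit below every control. Tm7sf2 fell by 1.84 ± 0.16 with X-1 (3.58-fold lower, adjusted p = 1.39e-05) and by 1.57 ± 0.16 with X-3 (2.96-fold lower, adjusted p = 4.42e-05). Hsd17b7, the ketoreductase of sterol demethylation, had levels of 0.26, 0.32 and 0.26 in control, 2.58, 2.37 and 2.03 with X-1, and 0.40, 2.53 and 2.40 with X-3, at chr1:171882591-171882650 (mm9, minus strand). X-3 replicate 1 lay near the controls and the other 5 treated arrays more than 1 unit above them. Hsd17b7 rose by 2.05 ± 0.49 with X-1 (4.14-fold, adjusted p = 0.00589) and 1.50 ± 0.49 with X-3 (2.83-fold, adjusted p = 0.0268). Without X-3 replicate 1 the X-3 value was 2.19. Its second probe, 2388 bases downstream, gave 2.10 ± 0.12 and 1.85 ± 0.12. The X-3 call of Hsd17b7 at the brightest probe was lost without control replicate 1 (1.49), 2 (1.52) or 3 (1.49), or X-3 replicate 2 (1.12) or 3 (1.19).

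Of the remaining sterol ring enzymes, Dhcr7, which catalyses a final reduction to cholesterol, fell by 0.87 ± 0.14 with X-1 (adjusted p = 0.000602) and 0.60 ± 0.14 with X-3 (adjusted p = 0.00535). Its levels were 1.53 to 1.63 in control, 0.64 to 0.83 with X-1 and 0.74 to 1.19 with X-3. A second Dhcr7 probe, 571 bases upstream, gave −0.65 ± 0.18 and −0.01 ± 0.18. Averaged over both probes, the X-3 difference of Dhcr7 was −0.30 and no longer called. Sc5d, a sterol desaturase, rose by 0.92 ± 0.13 with X-1 and 0.78 ± 0.13 with X-3 (adjusted p = 0.000366 and 0.00107) at its brightest probe, and its other probe is described below. Ebp, a sterol isomerase, was at −0.39 ± 0.17 with X-1 (adjusted p = 0.0735) and fell by 0.49 ± 0.17 with X-3 (adjusted p = 0.032). The X-3 call of Ebp was lost without control replicate 2 (−0.46) or 3 (−0.48) or X-3 replicate 2 (−0.51) or 3 (−0.43), and without X-1 replicate 2 Ebp was called with X-1 (−0.51). Cyp51, the lanosterol demethylase, Sc4mol (Msmo1 in RefSeq), the methyl sterol oxidase, and Nsdhl, a sterol dehydrogenase, were called with neither compound. Their differences lay between −0.16 and 0.24 at the brightest probes. Other Cyp51 probes, 1765 and 10909 bases upstream, gave 0.49 ± 0.18 and 0.43 ± 0.22 with X-1, the first called over all probes. With X-3 they gave 0.32 ± 0.18 and 0.13 ± 0.22, not called.

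Both transport and storage genes that were called rose, 2 of 4, where 28.2% of all genes rose with X-1 and 29.3% with X-3. Soat1 esterifies cholesterol for storage in droplets. Its level at chr1:158359977-158360036 (mm9, minus strand) was 2.65, 2.62 and 2.56 in control, 3.76, 3.89 and 3.85 with X-1, and 3.94, 3.54 and 3.50 with X-3, so that all treated arrays were higher. Soat1 rose by 1.22 ± 0.14 with X-1 (2.34-fold, adjusted p = 7.32e-05) and 1.05 ± 0.14 with X-3 (2.07-fold, adjusted p = 0.000217). Its other probes gave 0.80 and 1.18 with X-1 and 0.94 and 0.56 with X-3. Npc2, which hands cholesterol to Npc1 for export from lysosomes, rose by 0.67 ± 0.11 and 0.61 ± 0.11 (adjusted p = 0.00072 and 0.0015). Npc2 was not called with median scaling (0.47 and 0.39), and its sign turned with spike-in scaling (−0.30 and −0.15). Npc1 was at 0.10 ± 0.11 and −0.01 ± 0.11, with intervals of −0.14 to 0.34 and −0.25 to 0.22.

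Stard4, a carrier of sterols through the cytosol, depended on 1 array and on the probe. Its level was −0.03, −0.70 and −0.44 in control, 0.31, 0.18 and −0.02 with X-1, and −1.67, 0.45 and 0.03 with X-3. X-3 replicate 1 was the lowest of all 9 arrays, and the other X-3 arrays were above all controls. The differences were 0.55 ± 0.47 with X-1 and −0.01 ± 0.47 with X-3, neither called. Without X-3 replicate 1, both were called in the shared fit, at 0.55 with X-1 (adjusted p = 0.0353) and 0.63 with X-3 (adjusted p = 0.0329). The other Stard4 probes, 7468 and 6612 bases upstream, gave 1.52 ± 0.21 and 1.64 ± 0.15 with X-1, and 1.06 ± 0.21 and 1.16 ± 0.15 with X-3, all called over all probes.

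The liver X receptor genes moved in opposite directions. Nr1h3 encodes LXR alpha and was probed at chr2:91024435-91024494 (mm9, minus strand). Its level was −2.08, −2.08 and −2.04 in control, −3.84, −4.07 and −3.69 with X-1, and −3.53, −2.92 and −2.97 with X-3. The 3 groups did not overlap, and X-1 was lowest. Nr1h3 fell by 1.80 ± 0.18 with X-1 (3.48-fold lower, adjusted p = 3.37e-05) and by 1.08 ± 0.18 with X-3 (2.11-fold lower, adjusted p = 0.00089). Nr1h2, which encodes LXR beta, rose by 0.46 ± 0.12 with X-1 (1.38-fold, adjusted p = 0.0102) and 0.83 ± 0.12 with X-3 (1.77-fold, adjusted p = 0.00042). Its levels ran from 1.26 to 1.58 in control, 1.78 to 1.89 with X-1 and 2.18 to 2.22 with X-3. With median scaling the X-1 difference of Nr1h2 was 0.25 and not called, and with spike-in scaling −0.51.

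The LXR target genes were split too. Apoe, a lipoprotein component that takes up exported cholesterol, had levels of 2.41, 2.66 and 2.61 in control, 3.30, 3.73 and 3.80 with X-1, and 3.81, 3.60 and 3.59 with X-3, at chr7:20281732-20281791 (mm9, minus strand). All treated arrays were higher than the controls. Apoe rose by 1.05 ± 0.16 with X-1 (2.06-fold, adjusted p = 0.000431) and 1.11 ± 0.16 with X-3 (2.15-fold, adjusted p = 0.000344). Mylip, a ubiquitin ligase that lowers receptors of lipoprotein uptake, was at 4.39, 4.37 and 4.27 in control, 4.09, 4.59 and 4.41 with X-1, and 3.93, 3.52 and 3.58 with X-3, at chr13:45506979-45507038 (mm9, plus strand). All 3 X-3 arrays and X-1 replicate 1 lay below the controls, and the other X-1 arrays lay just above them. Mylip fell by 0.67 ± 0.16 with X-3 (1.59-fold lower, adjusted p = 0.00719) and was at 0.02 ± 0.16 with X-1. The other Mylip probe, 3171 bases upstream, gave −0.31 ± 0.38 with X-3 and 0.01 ± 0.38 with X-1, neither called. Pltp, which moves phospholipids between lipoproteins, rose by 0.67 ± 0.24 with X-3 (adjusted p = 0.0431) and was at −0.07 ± 0.24 with X-1. Its control arrays (−0.50, 0.08 and 0.24) overlapped the X-3 arrays (0.18, 0.82 and 0.81). The X-3 call of Pltp was lost without control replicate 1 (0.44) or 2 (0.73), X-3 replicate 2 (0.56) or 3 (0.56), or any X-1 array (0.67 each time), and with median scaling (0.45), and with spike-in scaling its value was −0.06.

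X-3 and X-1, given at the same dose and for the same time, were compared directly for the 32 genes, with p-values adjusted over all 16733 genes. Mvk and Nr1h3 were higher and Mylip lower with X-3 than with X-1. That is 2 of 32 higher and 1 lower, beside 7.2% and 3.66% of all genes, and 9.38% called in all, beside 10.9%. When X-3 replicate 1 was left out, 3 were higher and 2 lower, beside 20.3% of all genes called in either direction. Mvk was 0.58 ± 0.13 higher with X-3 (1.5-fold, interval 0.28 to 0.88, adjusted p = 0.0271), at 0.55, 0.71 and 0.48 on slides 1, 2 and 3. Nr1h3 was 0.72 ± 0.18 higher (1.65-fold, interval 0.32 to 1.13, adjusted p = 0.0359), at 0.30, 1.15 and 0.72 by slide. Mylip was at −0.69 ± 0.16 (1.61-fold lower, interval −1.06 to −0.32, adjusted p = 0.0313), at −0.16, −1.07 and −0.84 by slide. For Mvk and Nr1h3, which fell with both compounds, the fall with X-3 was thus the smaller one. All 3 differences kept their sign on every slide, but each call was lost when replicate 2 or 3 of either compound was left out. Over those fits Mvk ran from 0.54 to 0.65, Nr1h3 from 0.61 to 0.81 and Mylip from −0.66 to −0.58. The Nr1h3 and Mylip calls were also lost without control replicate 2 or 3 (0.72 and −0.69 each time), and that of Nr1h3 without X-1 replicate 1 (0.74). All 3 calls were lost with median scaling, with normexp background correction, with no filter on dim probes and in a fit of only the 2 groups compared. With spike-in scaling the Mvk and Mylip calls were lost, and with the mean of probes that of Mylip. The other Mylip probe gave −0.32 ± 0.38 for X-3 against X-1, not called.

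For the other 29 genes no difference between the compounds was called, which does not show that the compounds act alike on them. The narrowest intervals still allow a difference: that of Npc1 ran from −0.35 to 0.13 and that of Npc2 from −0.32 to 0.18. Insig1 differed by −0.14 (interval −0.59 to 0.31), Soat1 by −0.17 (−0.49 to 0.14), Tm7sf2 by 0.27 (−0.08 to 0.63) and Apoe by 0.06 (−0.30 to 0.42). The widest intervals were those of Hsd17b7 (−1.65 to 0.55) and Stard4 (−1.62 to 0.51), where X-3 replicate 1 lay apart, and without it the differences were 0.14 and 0.08. For Insig2, Fdft1, Sqle, Nr1h2 and Pltp the intervals lay to one side of 0, but the adjusted p missed the threshold: Insig2 differed by −0.41 ± 0.14 (adjusted p = 0.1), Fdft1 by 0.39 ± 0.15 (0.126), Sqle by −0.36 ± 0.11 (0.0791), Nr1h2 by 0.37 ± 0.12 (0.0886) and Pltp by 0.73 ± 0.24 (0.0895). In each of those 5 genes the X-3 and X-1 arrays did not overlap, nor did they in Npc1, whose interval spans 0. The share of all genes without overlap was not computed, so the lack of overlap lends these 5 genes no support. Without X-3 replicate 1, Insig2 (−0.49) and Pltp (0.94) were called. With the slide as a block, Pltp was called (0.73, adjusted p = 0.0189) and Mylip was not (−0.69, adjusted p = 0.0528).

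**Figure D3:**
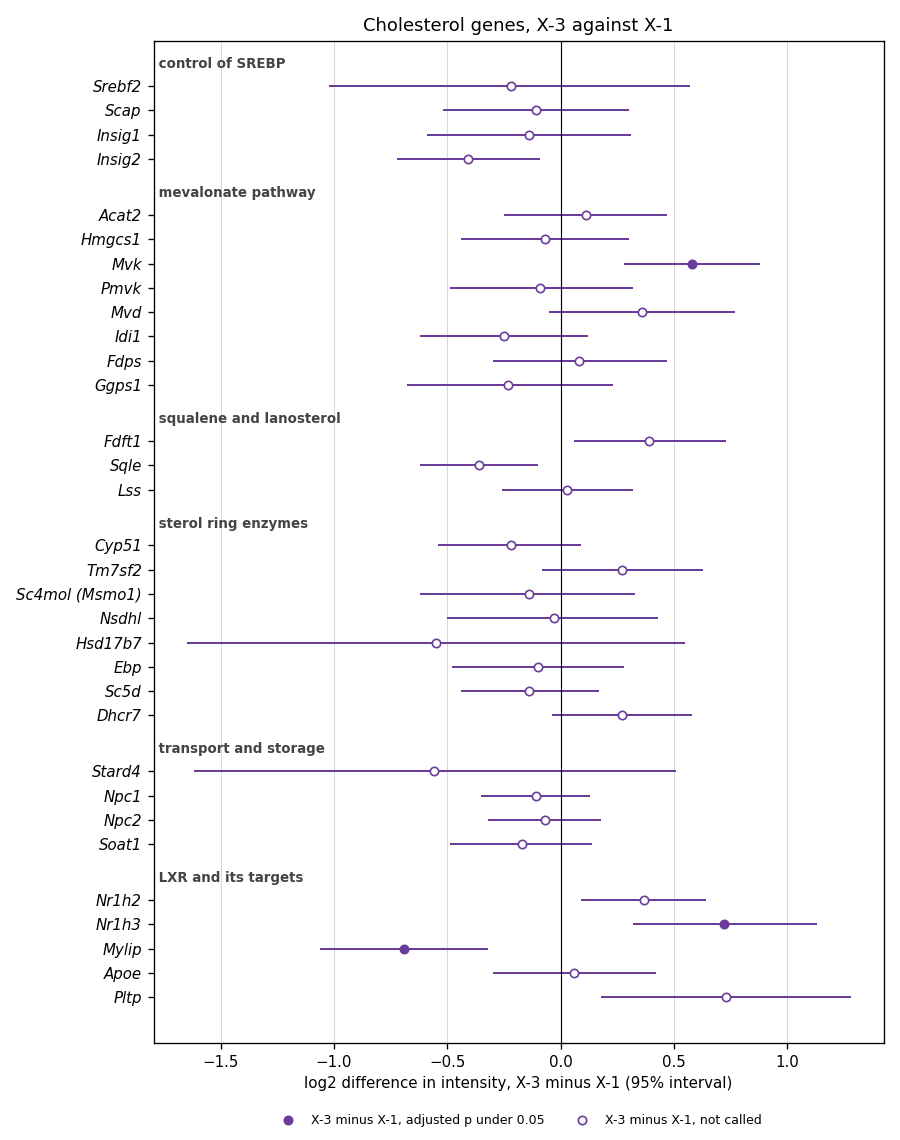
Log2 difference of X-3 from X-1 for the 32 genes, grouped by role; points are fitted differences, lines 95% confidence intervals (3 arrays per group), and filled points have an adjusted p under 0.05. Mvk (0.58), Nr1h3 (0.72) and Mylip (−0.69) are filled, and the widest intervals are those of Hsd17b7 and Stard4.

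The choice of probe decided the direction of a pair of genes. Several kept probes served 18 of the 32 genes, and 14 rested on 1. The brightest Lss probe, at chr10:76019513-76019572 (mm9, plus strand), gave −0.62 and −0.59 with X-1 and X-3. The probes 3521 and 6104 bases upstream gave 0.65 ± 0.16 and 0.72 ± 0.26 with X-1, and 1.15 ± 0.16 and 1.29 ± 0.26 with X-3, all called in the opposite direction. The mean over the Lss probes was 0.25 with X-1, not called, and 0.62 with X-3, called as higher. The brightest Sc5d probe, at chr9:42062857-42062916 (mm9, minus strand), gave 0.92 and 0.78, and a probe 2770 bases downstream −1.01 ± 0.17 and −1.07 ± 0.17. The mean over both Sc5d probes was −0.04 and −0.14, not called. Where Lss and Sc5d are listed or counted as fallen or risen, the direction is therefore that of the brightest probe only, not of the gene. Where these probes lie within the transcripts was not analysed here. By contrast, the probes of Insig1, Pmvk and Hsd17b7 gave the same direction and call.

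**Figure D4:**
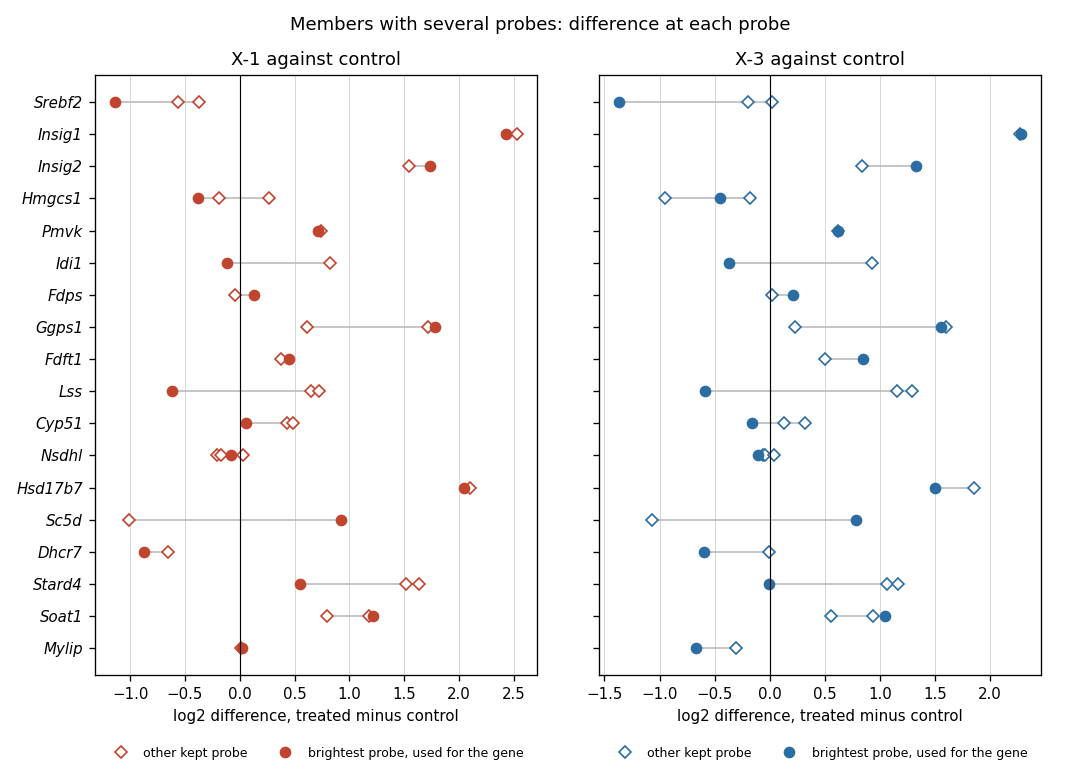
Log2 difference from control at each kept probe of the 18 genes with several probes, X-1 on the left and X-3 on the right; filled circles mark the brightest probe, which stands for the gene elsewhere, and open diamonds the others. The probes of Lss and Sc5d lie on both sides of 0 in both comparisons, and those of Insig1 lie together at 2.27 to 2.53.

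Scaling to spike-in RNA, possible on replicates 2 and 3 only, lowered the median of all genes by 0.92 with X-1 and 0.72 with X-3, and scaling to the median of all gene probes lowered it by 0.21 in both. With spike-in scaling, Insig1 (1.42), Hsd17b7 (0.99), Insig2 (0.89) and Ggps1 (0.80) remained called as higher with X-1, and Insig1 (1.71) and Hsd17b7 (1.46) with X-3. All genes called as lower remained so in both comparisons, in a scaling that lowered the median of all genes. Among them were Mvk (−3.40 and −2.60), Tm7sf2 (−2.61 and −2.26), Nr1h3 (−2.74 and −1.60) and Srebf2 (−1.82 and −1.50). Soat1 (0.36 and 0.22) and Apoe (0.20 and 0.25) kept their sign but were no longer called. Insig2 (0.49) and Ggps1 (0.59) did so with X-3. The directions given for the other genes that rose are relative to the 75th percentile of each array.

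**Figure D5:**
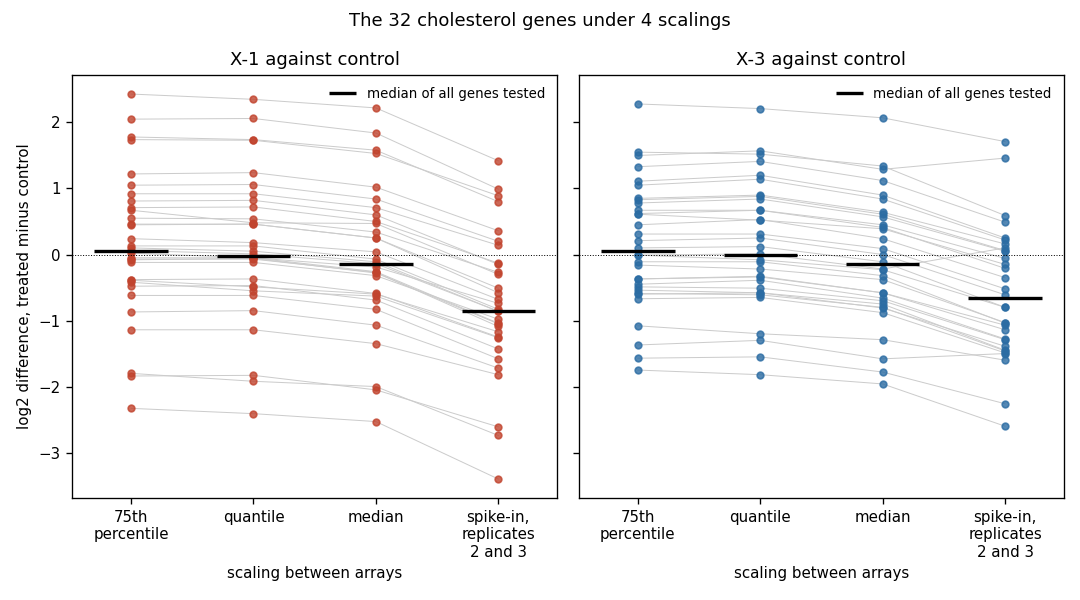
Log2 difference from control of the 32 genes (points joined by lines) under 4 ways of scaling arrays to each other, X-1 on the left and X-3 on the right; thick bars mark the median of all genes tested, and the first 3 scalings use 9 arrays, the spike-in scaling the 6 arrays of replicates 2 and 3. Most points drop with the median of all genes under spike-in scaling, while Insig1 stays at the top and Mvk at the bottom. Stard4 with X-3 does not drop.

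A further 89 genes of sterol biology on the array, from 7 lists of partners of the same pathway, gave 85 tested genes. With X-1, 22 of them rose (25.9%, against 28.2% of all genes) and 30 fell (35.3%, against 28.3%), with a median of −0.11. With X-3, 24 rose (28.2%, against 29.3%) and 21 fell (24.7%, against 26.4%), with a median of −0.15. The median of all genes was 0.06 in both. Leaving out X-3 replicate 1, 25 rose and 32 fell with X-3, against 32.5% and 30.4% of all genes. With spike-in scaling 7 rose and 58 fell with X-1, against 9.02% and 60.3% of all genes, and 7 rose and 52 fell with X-3, against 11% and 50.2%. With median scaling 14 rose and 30 fell with X-1, against 18.7% and 30.6%, and 14 rose and 23 fell with X-3, against 18.4% and 29.1%. Between X-3 and X-1, 6 were higher (7.06%, against 7.2%) and 3 lower (3.53%, against 3.66%), and without X-3 replicate 1, 7 were higher and 12 lower, against 20.3% of all genes called in either direction. The counts for each list are read against the same shares of all genes. They include Mbtps2 and Soat2, counted as risen with both compounds. These passed the filter on dim probes only through treated arrays, where they were high. Their place in the counts is a description, with no test. Of 82 partners above background on all 9 arrays, 20 rose and 29 fell with X-1, against 28.5% and 29.3% of all such genes. With X-3, 23 rose and 20 fell, against 29.5% and 27.3%. Of 13 SREBP processing and sensing partners, 5 rose and 3 fell with X-1, and 5 rose and 4 fell with X-3. Of 10 genes of the degradation of sterol enzymes, 2 rose with each compound, and 3 and 2 fell. Of 6 electron donors, 1 rose with each, and 2 and 1 fell. Of 13 isoprenoid genes, 4 rose with each, and 6 fell with X-1 and 1 with X-3. Of 12 uptake and lysosomal genes, 4 rose with each, and 4 and 3 fell. Of 15 sterol transport proteins, 2 rose and 7 fell with each. Of 16 genes of esterification, oxysterols and efflux, 4 rose and 5 fell with X-1, and 6 rose and 3 fell with X-3.

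The pathway partners with the largest changes moved in both directions. Osbpl8, which exchanges lipids between the endoplasmic reticulum and the plasma membrane, rose by 3.03 ± 0.17 with X-1 (8.15-fold, adjusted p = 1.23e-06) and 2.51 ± 0.17 with X-3, and averaged over its probes by 1.32 and 0.69. Nus1, a subunit of the enzyme that makes dolichol from farnesyl pyrophosphate, rose by 2.80 ± 0.13 and 2.27 ± 0.13. Marchf6, a ubiquitin ligase known to mark squalene epoxidase for degradation, rose by 2.58 ± 0.13 and 2.56 ± 0.13, from levels of 0.82 to 1.09 in control to 3.33 to 3.65 on the treated arrays, and averaged over its probes by 1.58 and 1.65. Arl4c, a small GTPase known as an LXR target, rose by 2.29 ± 0.36 and 2.87 ± 0.36, and averaged over its probes by 1.31 and 1.82. Cyp7b1, which hydroxylates oxysterols, fell by 3.61 ± 0.17 with X-1 (12.2-fold lower, adjusted p = 5.74e-07) and 2.75 ± 0.17 with X-3 (6.75-fold lower, adjusted p = 2.6e-06). Its levels were 2.70 to 2.91 in control, −1.09 to −0.64 with X-1 and −0.22 to 0.22 with X-3, and the difference between the compounds was called (0.85 ± 0.17, adjusted p = 0.0163), a call lost when replicate 2 of X-1 (0.90) or of X-3 (0.81) was left out. Fdxr, the reductase that feeds electrons to mitochondrial sterol hydroxylases, fell by 2.41 ± 0.16 and 2.35 ± 0.16, and Osbpl1a, an oxysterol-binding protein, by 1.91 ± 0.21 and 2.01 ± 0.21. Soat2, a second cholesterol esterification enzyme, was not well above background on any control array, was above it on 2 of 3 X-1 arrays and on all 3 X-3 arrays. Against the lowest signal called well above background on each control array, Soat2 was at least 2.62-fold higher with X-3. The like value with X-1 was 1.26-fold, which is no lower bound, because X-1 replicate 3 (−6.03) was itself not above background. Since it passed the filter only through the X-3 arrays, where it was high, these values are a description, with no test.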

How the data were processed

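RNA of 9 samples, 3 per group from the labels, was amplified from 0.5 µg and labelled with Cy3. The submitters describe 9 independent experiments. Per the file headers, the deposited intensity is the processed signal of Agilent Feature Extraction, with background and spatial trends removed. Replicate 1 was extracted with version 10.5.1.1 and the others with 10.7.3.1, per the file headers, while the submitters' processing notes name 9.1. The series table deposited by the authors holds a score per probe, used as an alternative only. Its columns had mean 0, SD 1 and median −0.12 and followed the log2 intensity at r of 0.9979 to 0.9998. Its scale and centring were read from the values.

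Log2 intensity minus the array's 75th percentile over gene probes was computed here from the deposited intensity. The percentiles ran from 9.94 to 10.92 in control, 9.63 to 10.66 with X-1 and 9.66 to 10.63 with X-3. Of 41174 probes, 214 were left out as outliers. Of the remaining 40960 probes, 24990 were named by accession, 6290 by symbol and 1625 by synonym in a RefSeq table, and 8055 kept the file's name. The filter kept the 25285 probes that all 3 arrays of some group measured well above background. Probe coordinates are those of the files (mm9). Differences were tested two-sided by limma's moderated linear model (limma 3.58.1, R 4.3.3), fitted once to 9 arrays with no term but group and checked on simulated data. Benjamini-Hochberg adjustment ran over 16733 genes, with a threshold of 0.05. The number of arrays limits the precision.

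Values on every array are given for genes called against control with a difference of at least 1, or called between the compounds. Those of Stard4 and Pltp were added after their values were seen. Of the pathway partners, the 3 largest called rises and falls per comparison with control are named. The members and lists were chosen with earlier results of these data known.

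Same-numbered arrays shared a slide. Slides 2 and 3 were scanned on 1 day and slide 1 on another, and slide 1 had no usable spike-in RNA. The deviations from the group means correlated across genes, for arrays of 1 number, at 0.518, 0.318 and 0.271 (X-1 and control), 0.238, 0.113 and 0.230 (X-3 and control), and −0.041, −0.182 and 0.156 (X-3 and X-1). The numbers were taken to pair the arrays in both comparisons with control. Normexp used the median spot signal, because the files of replicates 2 and 3 hold no mean signal.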

Additional observations from a re-analysis of the deposited data

How the results depend on the processing

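Alternatives were other scalings, background corrections, probe filters, probe summaries, the slide block, the authors' series table, fits of only the 2 groups compared, and each array left out. The fit on replicates 2 and 3 with 75th percentile scaling was chosen after seeing the data. Against control, the replicate block kept all 19 X-1 and all 23 X-3 calls of the 32 genes and added none. The series table, whose differences are in score units, and the filter on all 9 arrays also kept every one.

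Against control, the counts of the 32 genes moved by over 1.5 times only with spike-in scaling: 4 higher and 19 lower with X-1, and 2 higher and 16 lower with X-3. Between X-3 and X-1 (2 higher, 1 lower), 0 were higher and 0 lower with median scaling, normexp, no filter, or only the 2 groups. Of all genes, 2.75%, 6.44%, 2.09% and 4.53% were called in those fits. At the 75th percentile on replicates 2 and 3, 4 were higher and 9 lower, against 17.9% and 20.7% of all genes. None was lower with spike-in scaling, the mean of probes or the replicate block (0 each). Leaving out 1 array gave 11 to 13 higher and 5 to 8 lower with X-1, 10 to 14 and 7 to 11 with X-3, and 0 to 3 and 0 to 2 between the compounds.

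Of the 85 pathway partners, 14 were higher with median scaling with each compound, and 7 higher with spike-in scaling, where 58 were lower with X-1 and 52 with X-3. On replicates 2 and 3, 36 were lower with X-3, against 34.2% of all genes. Between the compounds, 2 were higher and 0 lower with median scaling, 12 and 24 on replicates 2 and 3, 1 and 0 with no filter, and 3 and 0 with only the 2 groups. Of all genes, 1.89% and 0.855%, 17.9% and 20.7%, 1.53% and 0.561%, and 3.27% and 1.26% were called in those fits. Lower were 0 with spike-in scaling and 1 with normexp, against 1.53% and 2.48% of all genes. With the mean of probes 6 were lower and with the replicate block 1, against 3.96% and 3.88%. Leaving out 1 array gave 17 to 26 higher and 19 to 32 lower with X-1, 22 to 25 and 17 to 32 with X-3, and 1 to 7 and 0 to 12 between the compounds.

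Directions against control turned with spike-in scaling for Pmvk (−0.13 with X-1, −0.21 with X-3), Fdps (−0.83, −0.61), Sqle (−0.15, −0.35), Sc4mol (−0.68, −0.80), Stard4 (−0.27, 0.10) and Npc2 (−0.30, −0.15). With X-1 alone they turned for Fdft1 (−0.58), Cyp51 (−0.86), Npc1 (−0.86), Nr1h2 (−0.51) and Mylip (−0.74), and with X-3 alone for Mvd (−0.52) and Pltp (−0.06). The mean of probes turned Lss (0.25, 0.62), Sc5d (−0.04, −0.14), Idi1 (0.35, 0.28) and, with X-3, Stard4 (0.74) and Cyp51 (0.10). Other turns against control were of uncalled differences of at most 0.13 in size. Stard4 with X-3 was also 0.81 on replicates 2 and 3 and ran from −0.43 to 0.63 with 1 array left out (0.63 without X-3 replicate 1). The turns with the mean of probes come from probes that differ in direction; the cause of the other changes was not tested.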
